A study of Homo sapiens with 50 samples.

Results

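DEPDC1 and DEPDC1B are related human genes for DEP domain-containing proteins. They were followed here with the 3 array probes that carry either name and with A_33_P3404221, a probe of the DEPDC1 locus that carries no gene name. These 4 probes were 4 of 34127 on the array, and all 4 passed the criteria on background and on variation that left 12206 features for testing. DEPDC1 was read by A_23_P200310 and by A_33_P3387524. DEPDC1B was read by A_23_P361419. A_33_P3404221 was singled out because its signal was lower than in the controls in directly irradiated cells of 3 groups, and the genes were taken because of it. All differences that involve directly irradiated cells, and every difference of A_33_P3404221 from the controls, are therefore given as values with no test.

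The study asked which transcripts differ between cells hit by alpha particles, their unirradiated bystanders and untreated cells. It did so at inherent and at reduced levels of RAD9, a checkpoint and DNA repair protein. The cells were H1299, an established line from a non-small cell carcinoma of the lung whose RAD9 level was left as it is, and H1299shRAD9, derived from it by stable transfection of a short hairpin RNA against RAD9. More than one stable transfectant was in use, and which of them gave which sample is not in the sources used here. Each line gave 5 groups of 5 arrays, 50 arrays in all, with RNA taken at 4 h. CTL cells were sham-irradiated (0 Gy). In irradiated dishes, the directly exposed cells took 1 Gy of alpha particles at 125 keV/µm through the thin Mylar base of one dish, and the bystanders grew on the thicker base of a second, concentric dish that kept the particles out. Dishes were chosen afterwards by the micronuclei of the bystanders. Positive dishes had a strong bystander response and negative dishes stayed at background, so dishes between these were left out. The directly irradiated cells had high micronucleus levels in both kinds of dish. BP names the bystanders of the dishes that were positive and DBP the directly irradiated cells beside them, and BN and DBN name the same for the negative dishes. The groups are thus chosen by an outcome, each array averages a whole culture, and fewer cells carrying a transcript cannot be told apart from less of it per cell.

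Background on the genes is as follows. The DEP domain is a fold of signalling proteins that helps to place them at membranes. DEPDC1 is best known in carcinomas of the bladder and lung. In bladder cancer cells the protein binds the zinc finger repressor ZNF224 and holds down TNFAIP3, an inhibitor of NF-κB signalling. DEPDC1B also carries a DEP domain and acts through the adhesion phosphatase PTPRF, so that cells can detach and round up on entry to mitosis. Transcripts of both accumulate late in the cell cycle, as do those of cyclin B and the mitotic kinases, through promoters read by the MuvB complex with B-MYB and FOXM1.

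The probe sequences show what each spot could hybridise. A_33_P3404221 is given whole because it has no gene name, and the others are given by their first 30 of 60 bases. All run 5′ to 3′ in the sense of the transcript, as listed in the array annotation, and no part is set in capitals.
A_33_P3404221: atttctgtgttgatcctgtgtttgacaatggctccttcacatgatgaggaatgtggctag
A_23_P200310: agatggactatttgctcctttgcctaactt
A_33_P3387524: attgagattaaaattatttggggttttgta
A_23_P361419: ttatctctgtgctttctttttcatggtgtt

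In hg19, the build of the array annotation, A_33_P3404221 lies at chr1:68944584-68944643 on the minus strand. The nearer DEPDC1 probe, A_33_P3387524, lies 3548 bases away at chr1:68940977-68941036, and A_23_P200310 is listed at chr1:68939812-68939846, 35 of its 60 bases. The DEPDC1B probe lies at chr5:59893241-59893300. The reverse complement of A_33_P3404221 occurred in 1 of 35116 RefSeq promoter windows, that of the antisense transcript DEPDC1-AS2. This match places the probe in GRCh38.p14 at chr1:68478901-68478960, on the minus strand. There it falls inside DEPDC1 (chr1:68474152-68497082, minus strand) and just upstream of DEPDC1-AS2 (chr1:68479129-68483704, plus strand), a long non-coding RNA read from the other strand. Whether the 60 bases are exonic or intronic is not given in the sources used here. The probes share no run of more than 8 bases with each other. RefSeq lists the pseudogenes DEPDC1P1 on chromosome 15 and DEPDC1P2 on chromosome 9, so a part of the DEPDC1 signal could come from related sequence.

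The promoters are shown because the probes of both genes had lower values in the same groups. Each run is the 250 bases before the RefSeq gene start in GRCh38.p14, chr1:68497083-68497332 for DEPDC1 and chr5:60700167-60700416 for DEPDC1B, both minus strand. Capitals mark CCAAT boxes and TTCAAA, the reverse complement of the CHR motif TTTGAA.
DEPDC1: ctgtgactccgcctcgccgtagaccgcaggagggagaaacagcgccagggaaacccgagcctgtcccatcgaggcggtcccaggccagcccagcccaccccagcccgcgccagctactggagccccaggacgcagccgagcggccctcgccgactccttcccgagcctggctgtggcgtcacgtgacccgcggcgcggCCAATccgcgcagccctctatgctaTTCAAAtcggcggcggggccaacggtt
DEPDC1B: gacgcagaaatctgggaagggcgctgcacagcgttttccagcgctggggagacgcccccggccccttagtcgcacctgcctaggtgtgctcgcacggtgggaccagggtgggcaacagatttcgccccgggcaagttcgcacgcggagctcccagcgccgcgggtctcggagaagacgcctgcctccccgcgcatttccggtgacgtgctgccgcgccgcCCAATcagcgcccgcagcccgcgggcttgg

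The DEPDC1 promoter held CCAAT from 52 to 48 bases before the start and TTCAAA from 27 to 22 bases before it. The DEPDC1B promoter held CCAAT from 30 to 26 bases before the start, and its TTCAAA lay from base 3 to base 8 of the transcript. The other form of the CHR motif that was searched, TTCGAA, was in neither window. Over windows of 300 bases (250 before and 50 after the start) and both strands, TTTGAA was found in 15.2% of 35116 RefSeq windows, TTCGAA in 1.45%, CCAAT in 34.6%, and TTTGAA with CCAAT in 5.90%. A list of G2/M genes had 57 windows from 46 of its 54 current symbols, so some genes count more than once. Of these 57 windows, 28 (49.1%) held both motifs. These are matches of letters and say nothing of which factor binds.

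Levels below are log2 intensities relative to the median probe of the same array, so that 0 is that median. Samples are given in the order of replicates 1 to 5. The probes were well above background on 50 of 50 arrays except A_33_P3404221, which was so on 48, and none was saturated. A_33_P3404221 missed it on replicates 2 and 3 of H1299shRAD9 DBP. Values for that group use all 5 arrays, with these 2 at their own signal.

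A_33_P3404221, the unnamed probe, was lower in directly irradiated cells than in CTL in both lines, the kind of difference for which it was singled out. Its levels were 0.78, 0.68, 0.65, 0.47 and 0.60 in H1299 CTL. They were 0.0034, -0.74, -1.17, -0.85 and -0.69 in H1299 DBP. They were -1.04, -1.03, -1.55, -1.12 and -0.74 in H1299 DBN. Every directly irradiated H1299 array thus lay below every control, with replicate 1 of DBP the closest to them. In H1299shRAD9 the levels were 0.42, 0.45, 0.67, 0.58 and 0.68 in CTL. In DBP they were -0.96, -1.73, -1.29, -0.86 and -0.28. In DBN they were -1.3, -0.76, -0.80, -0.19 and -1.27. The groups did not overlap here either. Relative to CTL the mean was 2.50-fold lower in H1299 DBP (log2 difference -1.32, SD of the 5 pairs 0.37), 3.32-fold lower in H1299 DBN (-1.73, SD 0.32), 3.0-fold lower in H1299shRAD9 DBP (-1.58, SD 0.49) and 2.68-fold lower in H1299shRAD9 DBN (-1.42, SD 0.46). All 5 pairs were lower in each comparison. Over the 3 pairs of H1299shRAD9 DBP in which the probe was well above background, an alternative chosen after seeing the data, the difference was -1.26 (SD 0.26), 2.39-fold lower. Normexp background correction gave smaller differences of -0.86, -1.21, -0.97 and -0.91 in the same order of comparisons.

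In bystanders the same probe overlapped the controls more. Levels were 0.40, -0.05, 0.28, 0.49 and 0.24 in H1299 BP and 0.89, -0.05, 0.08, 0.61 and 0.53 in H1299 BN. In H1299 BP 4 of 5 arrays lay below every H1299 control, the lowest of which was at 0.47. Levels were 0.47, 0.68, 0.25, 0.37 and 0.63 in H1299shRAD9 BP and 0.32, 0.54, -0.07, 0.70 and 0.57 in H1299shRAD9 BN. Of the 20 directly irradiated arrays, 19 lay below all 30 CTL and bystander arrays, and the exception was replicate 1 of H1299 DBP. Ordered by mean, the 6 groups of CTL and bystanders ran from 0.63 (H1299 CTL) to 0.27 (H1299 BP) and the 4 direct groups from -0.69 (H1299 DBP) to -1.10 (H1299 DBN). Of the 9 steps in that order only the one between these sets, 0.96, was larger than the SD of both groups beside it. The probe was singled out for lower values in direct cells, so nothing is read from that step.

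**Figure D1:**
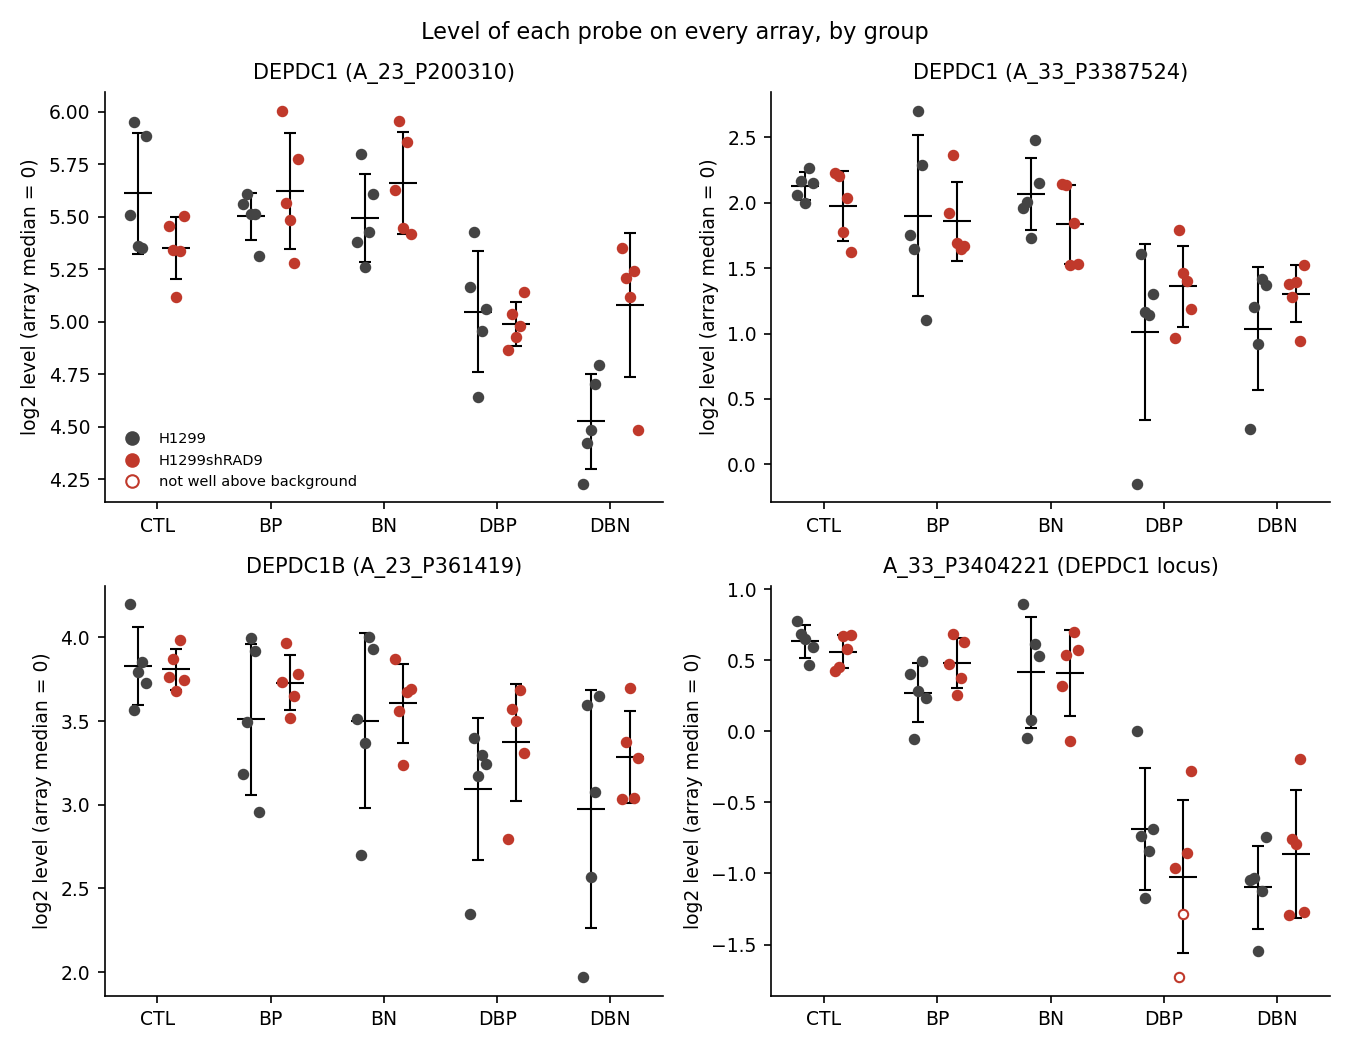
Log2 level (array median = 0) of each probe on all 50 arrays by group, H1299 in grey and H1299shRAD9 in red, with replicates 1 to 5 side by side; black bars are the mean ± SD (n = 5) and open circles are arrays on which the probe was not well above background. In the A_33_P3404221 panel 19 of 20 DBP and DBN arrays sit below every CTL, BP and BN array, and for DEPDC1B only 3 of 20 do.

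DEPDC1, read by A_23_P200310, was lower in directly irradiated cells by less. Levels in H1299 CTL were 5.51, 5.95, 5.36, 5.35 and 5.88. They were 5.16, 5.43, 4.64, 4.95 and 5.06 in DBP. They were 4.23, 4.42, 4.48, 4.70 and 4.79 in DBN. The DBN arrays lay below all controls and the DBP arrays overlapped them. In H1299shRAD9 the levels were 5.46, 5.34, 5.12, 5.34 and 5.50 in CTL. They were 4.87, 5.04, 4.93, 4.98 and 5.14 in DBP. They were 5.35, 5.21, 5.12, 5.24 and 4.49 in DBN. The DBP arrays overlapped CTL by one array, while the DBN arrays other than replicate 5 lay within the range of CTL or close to it. The log2 differences from CTL were -0.56 (SD of pairs 0.21) in H1299 DBP and -1.08 (SD 0.34) in H1299 DBN, lower in 5 of 5 pairs each. With normexp the first was -0.86. In H1299shRAD9 they were -0.36 (SD 0.15, 5 of 5 pairs) in DBP and -0.27 (SD 0.42, 4 of 5 pairs) in DBN. The H1299shRAD9 DBN value rested largely on replicate 5, whose pair differed by -1.02, and it was -0.085 without that pair. The order by mean ran from 5.66 (H1299shRAD9 BN) to 4.53 (H1299 DBN), and 1 of 9 steps, from H1299shRAD9 DBP (4.99) down to H1299 DBN, was larger than the SD of both neighbours.

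The other DEPDC1 probe, A_33_P3387524, gave larger differences from CTL except in H1299 DBN, where both probes gave nearly the same value. In H1299 CTL its levels lay between 2.0 and 2.27. In H1299 DBP they were -0.15, 1.61, 1.16, 1.14 and 1.3 and in H1299 DBN 0.27, 1.21, 0.92, 1.42 and 1.37. Both direct groups lay below all H1299 controls, and replicate 1 was the lowest in each. In H1299shRAD9 CTL the levels lay between 1.62 and 2.23, in DBP between 0.96 and 1.79 and in DBN between 0.95 and 1.52. The DBP arrays overlapped CTL and the DBN arrays did not. The log2 differences from CTL were -1.11 (SD of pairs 0.64) in H1299 DBP, -1.09 (SD 0.41) in H1299 DBN, -0.61 (SD 0.38) in H1299shRAD9 DBP and -0.67 (SD 0.41) in H1299shRAD9 DBN. All 5 pairs were lower in each. By mean the 6 CTL and bystander groups stood between 2.13 and 1.83 and the 4 direct groups between 1.36 and 1.01. The step of 0.47 between these sets was the only one of 9 larger than the SD of both neighbours. The members were chosen with lower values in direct cells in view, so nothing is read from it.

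DEPDC1B, read by A_23_P361419, had lower means in the direct groups but broad overlap. Levels in H1299 CTL were 4.20, 3.57, 3.79, 3.85 and 3.73. They were 2.35, 3.40, 3.17, 3.3 and 3.24 in DBP. They were 1.97, 3.60, 2.57, 3.08 and 3.65 in DBN. The DBP arrays lay below all controls, with replicate 1 far under the rest, and replicates 2 and 5 of DBN were at the level of the controls. In H1299shRAD9 the levels were 3.77, 3.87, 3.68, 3.98 and 3.74 in CTL. They were 2.8, 3.57, 3.5, 3.69 and 3.31 in DBP. They were 3.03, 3.38, 3.70, 3.04 and 3.28 in DBN. Both direct groups had 1 array above the lowest control. The log2 differences from CTL were -0.74 (SD of pairs 0.65, 5 of 5 pairs lower) in H1299 DBP, -0.85 (SD 0.92, 4 of 5) in H1299 DBN, -0.44 (SD 0.31, 5 of 5) in H1299shRAD9 DBP and -0.52 (SD 0.36, 4 of 5) in H1299shRAD9 DBN. Without replicate 1 the H1299 values were -0.46 in DBP and -0.51 in DBN. The means fell in an order from 3.83 (H1299 CTL) to 2.97 (H1299 DBN) in which none of the 9 steps was larger than the SD of both neighbours.

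**Figure D2:**
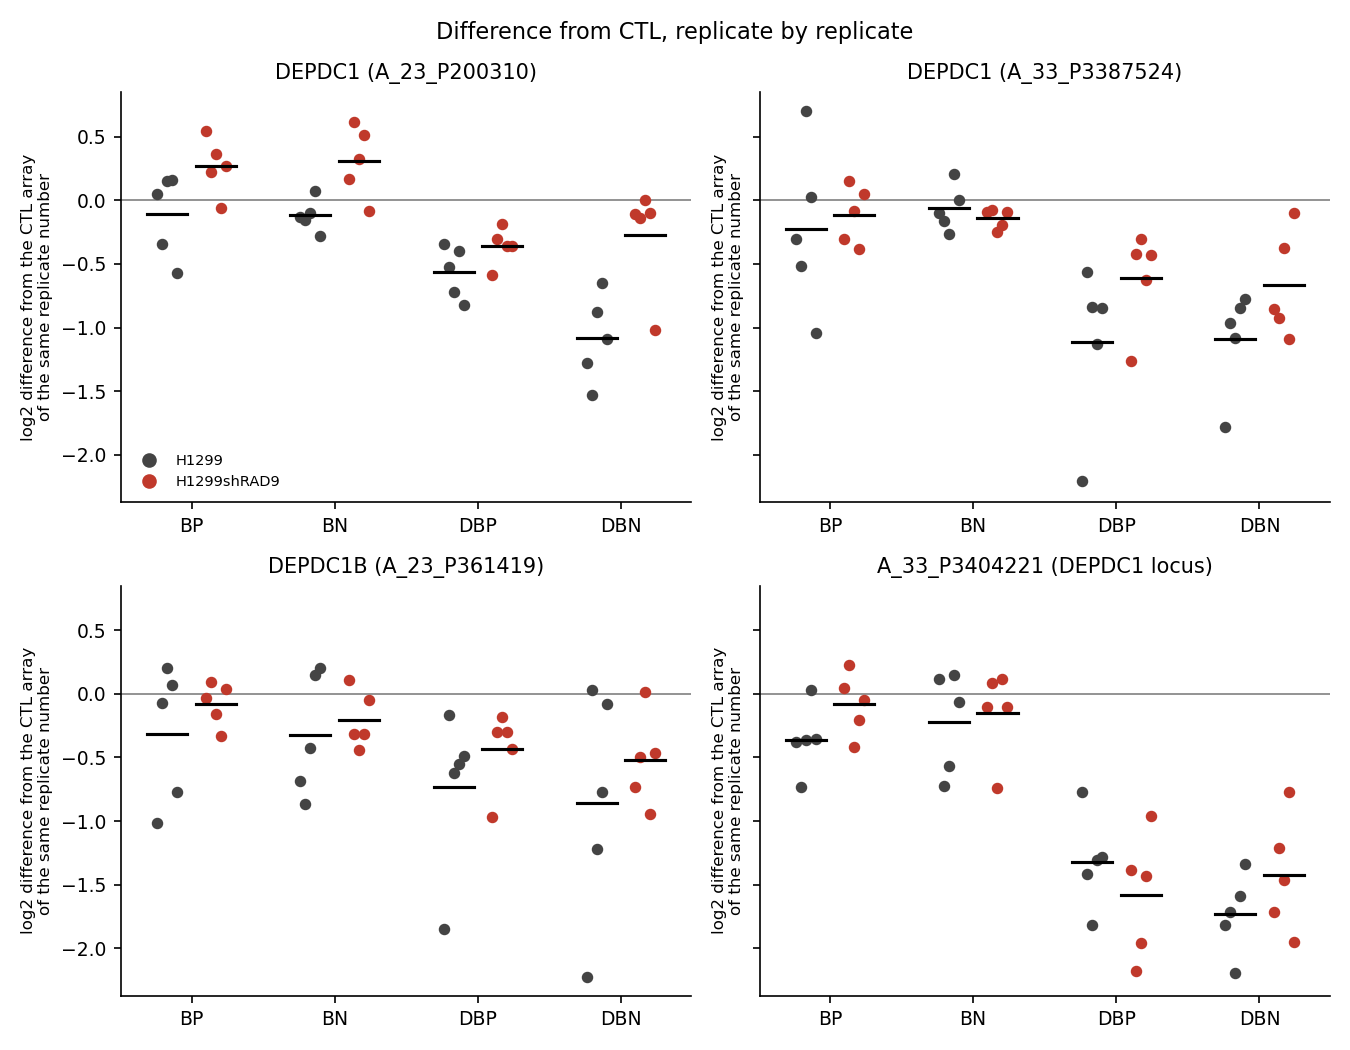
Log2 difference of each BP, BN, DBP or DBN array from the CTL array of the same line and replicate number, for the 4 probes; points are the 5 pairs, black lines their mean, H1299 grey and H1299shRAD9 red. A_33_P3404221 lies between -0.77 and -2.20 in all 20 direct pairs, and most bystander pairs of every probe lie between -0.5 and 0.5.

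Counted over members, the arrays did not overlap CTL in 3 of 4 probes in H1299 DBP, where 0.913% of all features were lower without overlap. They did not overlap in 3 of 4 in H1299 DBN (0.869% of all features), in 1 of 4 in H1299shRAD9 DBP (0.794%) and in 2 of 4 in H1299shRAD9 DBN (1.05%). Lower in all 5 pairs were 4 of 4 in H1299 DBP (5.44% of all features), 3 of 4 in H1299 DBN (5.23%), 4 of 4 in H1299shRAD9 DBP (6.46%) and 2 of 4 in H1299shRAD9 DBN (7.13%). The members were chosen on such comparisons, so nothing is read from these counts. The 4 comparisons use only 10 CTL arrays, so 2 comparisons in a line share their controls.

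Direct cells also had lower means than bystanders in these probes, given again as values. For A_33_P3404221 the log2 difference of direct from bystander cells was -0.96 (SD of pairs 0.44) in H1299 DBP against BP, -1.51 (SD 0.38) in H1299 DBN against BN, -1.5 (SD 0.56) in H1299shRAD9 DBP against BP and -1.27 (SD 0.47) in H1299shRAD9 DBN against BN. For DEPDC1 A_23_P200310 it was -0.45 (SD 0.28), -0.97 (SD 0.28), -0.63 (SD 0.31) and -0.58 (SD 0.28) in the same order. Both probes were lower in all 5 pairs of each comparison. DEPDC1 A_33_P3387524 gave -0.89 (SD 0.92), -1.03 (SD 0.39), -0.50 (SD 0.30) and -0.53 (SD 0.43), and DEPDC1B gave -0.42 (SD 0.49), -0.53 (SD 0.92), -0.36 (SD 0.39) and -0.32 (SD 0.50). With normexp the H1299 DBN against BN difference was 0.23 for DEPDC1B, the opposite direction, -0.12 for A_23_P200310, -0.50 for A_33_P3387524 and -0.85 for A_33_P3404221. Over its 3 measured pairs, A_33_P3404221 was at -1.19 (SD 0.26) in H1299shRAD9 DBP against BP. For this probe normexp also gave -0.55 in H1299 DBP against BP, -0.89 in H1299shRAD9 DBP against BP and -0.82 in H1299shRAD9 DBN against BN. Without normexp, the SD over pairs was larger than the difference for DEPDC1B in each comparison and for A_33_P3387524 in H1299 DBP against BP. Arrays did not overlap in 0 of 4 probes in H1299 DBP against BP (0.181% of all features), in 3 of 4 in H1299 DBN against BN (0.439%), in 2 of 4 in H1299shRAD9 DBP against BP (0.513%) and in 3 of 4 in H1299shRAD9 DBN against BN (0.447%). Lower in all 5 pairs were 2 of 4 (2.82% of all features), 3 of 4 (5.16%), 3 of 4 (3.86%) and 3 of 4 (2.06%) in the same order.

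In bystanders the probes of DEPDC1 and DEPDC1B did not pass the test against CTL in either line. The test was limma, blocked on replicate number. Calling needed a p below 0.006 and, beyond that, fewer than 10% expected false discoveries, and the CTL arrays are those of the comparisons that chose the members. Of 12 tests none was called, and 2 had an unadjusted p under 0.05. Over all features, 0.164% were called lower and 2.17% higher in H1299shRAD9 BP, 0.00819% lower and 0.041% higher in H1299shRAD9 BN, and none in H1299 BP or BN, where 711 and 340 features had an unadjusted p under 0.05. In H1299shRAD9 such features numbered 1534 in BP and 1744 in BN, of 12205.

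Both of the smaller p-values came from DEPDC1 A_23_P200310 in H1299shRAD9, where bystanders were higher than CTL. Its levels were 6.01, 5.57, 5.48, 5.28 and 5.77 in BP and 5.63, 5.96, 5.44, 5.86 and 5.42 in BN, against 5.12 to 5.50 in CTL. The difference was 0.27 (95% interval 0.013 to 0.53, limma adjusted p = 0.374) in BP and 0.31 (0.023 to 0.60, adjusted p = 0.314) in BN, higher in 4 of 5 pairs each. In H1299 the same probe gave 5.56, 5.61, 5.51, 5.51 and 5.31 in BP and 5.38, 5.80, 5.26, 5.43 and 5.61 in BN. It differed from CTL by -0.11 (-0.53 to 0.31, adjusted p = 0.918) and -0.12 (-0.36 to 0.13, adjusted p = 0.999). Whether this bystander difference itself differs between the lines was not tested.

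DEPDC1 A_33_P3387524 did not share that direction in H1299shRAD9 bystanders. Its differences from CTL were -0.11 (95% interval -0.37 to 0.15) in H1299shRAD9 BP, -0.14 (-0.34 to 0.060) in H1299shRAD9 BN, -0.23 (-0.77 to 0.31) in H1299 BP and -0.06 (-0.32 to 0.20) in H1299 BN. It was lower in all 5 pairs in H1299shRAD9 BN, as were 5.41% of all features. DEPDC1B differed by -0.08 (-0.32 to 0.16) in H1299shRAD9 BP, -0.20 (-0.46 to 0.055) in H1299shRAD9 BN, -0.32 (-0.81 to 0.18) in H1299 BP and -0.32 (-0.73 to 0.083) in H1299 BN. The limma adjusted p of these 8 values was 0.458 or more. The lower ends for H1299 BP, -0.77 and -0.81, lie beyond the differences of the same probes in H1299shRAD9 direct groups. A_33_P3404221, given with no test, differed from CTL by -0.36 (SD of pairs 0.27) in H1299 BP, -0.22 (SD 0.40) in H1299 BN, -0.08 (SD 0.25) in H1299shRAD9 BP and -0.15 (SD 0.35) in H1299shRAD9 BN.

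Bystanders of positive and negative dishes did not pass the test against each other. In H1299, BP minus BN was 0.007 (95% interval -0.36 to 0.37) for DEPDC1 A_23_P200310, -0.16 (-0.76 to 0.43) for A_33_P3387524, 0.009 (-0.60 to 0.62) for DEPDC1B and -0.14 (-0.60 to 0.32) for A_33_P3404221. In H1299shRAD9 it was -0.04 (-0.41 to 0.33), 0.03 (-0.39 to 0.44), 0.12 (-0.20 to 0.45) and 0.07 (-0.29 to 0.43) in the same order. Of these 8 tests by limma without the block none had an unadjusted p under 0.05. No feature of 12206 was called in either line, and 201 in H1299 and 46 in H1299shRAD9 had an unadjusted p under 0.05.

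The RAD9 lines did not differ in these probes at the study's threshold for lines (limma, p below 0.005, false discovery rate below 10%). H1299shRAD9 minus H1299 was -0.26 (95% interval -0.61 to 0.089, adjusted p = 0.244) for DEPDC1 A_23_P200310, -0.15 (-0.48 to 0.18) for A_33_P3387524 and -0.02 (-0.34 to 0.30) for DEPDC1B in CTL cells, where 7.69% of all features were called lower and 7.82% higher. A_33_P3404221, not tested in CTL, was at 0.56 ± 0.12 in H1299shRAD9 and 0.63 ± 0.12 in H1299 (SD, n = 5). In BP cells the difference was 0.12 (-0.27 to 0.51) for A_23_P200310, -0.04 (-0.64 to 0.56) for A_33_P3387524, 0.22 (-0.26 to 0.70) for DEPDC1B and 0.21 (-0.17 to 0.59) for A_33_P3404221, with 3.42% of features called lower and 4.14% higher. In BN cells it was 0.17 (-0.21 to 0.54), -0.23 (-0.65 to 0.19), 0.10 (-0.40 to 0.61) and -0.003 (-0.47 to 0.46), with 4.27% lower and 4.18% higher. The median of all features was itself 0.10 in CTL, 0.14 in BP and 0.17 in BN, so values below that are lower relative to the typical feature. None of the 11 tests had an unadjusted p under 0.05, as 4798 features had in CTL, 3205 in BP and 3533 in BN. Line and slide cannot be told apart here, since 11 of 13 slides held arrays of a single line. Of the marker genes tested, PTPRC, a leukocyte surface phosphatase, was the only one called, higher in H1299shRAD9 by 1.2 in CTL and by 1.17 in BP (adjusted p = 0.0123 and 0.0523), and its part in the line comparisons was not tested.

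The study reported by Western blot that RAD9 protein was reduced in its stable transfectants, and the arrays read only RNA. The targeted gene was read by the RAD9A probe A_24_P21715. In CTL cells it stood at 3.65 ± 0.19 in H1299shRAD9 and 4.01 ± 0.13 in H1299 (SD, n = 5), 77.9% of the H1299 signal (two-sided exact permutation p = 0.0159, or 0.0794 adjusted over the 5 conditions). Its difference was -0.34 between the DBP groups, and it was -0.13 or closer to 0 in BP, BN and DBN (exact p from 0.0714 to 0.873 over these 4). Array medians ran from 68.4 to 344 intensity units over the 50 arrays, and the share of probes well above background ran from 55.4% to 83.3%, the highest on replicate 1 of H1299 DBN and the next at 73.0%. The epithelial keratins KRT8 and KRT18 and the mesenchymal filament VIM were well above background on 50 of 50 arrays, the adhesion proteins EPCAM and CDH1 on 5, and the fibroblast collagens COL1A1 and COL1A2 on 8. The leukocyte markers PTPRC and CD3E were so on 50 and 38 arrays, at mean log2 levels of 0.57 and -1.38.

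Arrays came up to 4 to a slide on 13 slides, so CTL and direct arrays could be set against each other within a slide in part. Within slides, A_33_P3404221 was lower in H1299 DBP on 4 of 4 slides (-0.78 to -1.82), in H1299 DBN on 3 of 3 (-1.59 to -2.20), in H1299shRAD9 DBP on 2 of 2 (-0.96 to -1.48) and in H1299shRAD9 DBN on 1 of 1 (-1.73). DEPDC1 A_23_P200310 was lower on the same slides by values from -0.35 to -0.82, from -0.65 to -1.09, from -0.25 to -0.36, and by -0.05 on the one slide for H1299shRAD9 DBN. DEPDC1B was lower on all of them too, by -0.14 to -1.85. For bystanders, the H1299shRAD9 differences of DEPDC1 A_23_P200310 from CTL were 0.05 and 0.27 within the 2 slides for BP, and -0.08 and 0.23 within the 2 slides for BN. A_33_P3404221 was lower than CTL in H1299 BP on 3 of 3 slides (-0.18 to -0.73) and in H1299 BN on 2 of 3 (-0.73 to 0.15). In H1299shRAD9 it was lower on 2 of 2 slides in BP (-0.051 to -0.25) and on 2 of 2 in BN (-0.10 to -0.12).

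Transcripts of the late cell cycle moved beside the members in the direct groups. A list of 56 G2/M genes, drawn up with earlier results of these data known, had 54 on the array and 35 tested, each by its brightest probe. The counts and p-values of its genes in direct groups are therefore a description and no independent test. Against CTL, limma with the thresholds given above called 18 of 35 lower in H1299shRAD9 DBP and 20 of 35 in H1299shRAD9 DBN. Of all features, 0.762% and 1.36% were called lower there. In H1299, 6 of 35 were called lower in DBP (0.0573% of all features, 7 in number) and 1 of 35 in DBN (0.0164%, 2 in number). By mean alone, 34 of 35 lay below CTL in both H1299shRAD9 direct groups and 35 of 35 in both H1299 direct groups. No gene of the list was called higher in any of the 4, where 1.02%, 3.42%, 0% and 0% of all features were. The median difference of the list was -0.56 in H1299shRAD9 DBP, -0.60 in H1299shRAD9 DBN, -0.79 in H1299 DBP and -0.93 in H1299 DBN, against medians of all features of 0.016, -0.022, 0.014 and -0.097. Leaving out 1 replicate number gave counts of 0 (without 2 or without 3) to 20 in H1299shRAD9 DBP, 6 to 21 in H1299shRAD9 DBN and 0 or 1 in H1299 DBP, and with the slide as a fixed block the H1299shRAD9 counts were 0 and 1. A single fit of all 10 groups called 20 in H1299 DBP, 24 in H1299 DBN, 10 in H1299shRAD9 DBP and 11 in H1299shRAD9 DBN. With the slide as a random block the H1299 counts were 0 in DBP and 15 in DBN.

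The genes of the list with the largest called falls were PIF1 and genes of the mitotic spindle and its control. PIF1, a DNA helicase, fell most in H1299 DBN (log2 difference -2.06, limma adjusted p = 0.0137), and in H1299shRAD9 DBP and DBN it differed by -1.35 and -1.34 (adjusted p = 0.0399 and 0.0253). TROAP, which encodes a spindle-associated protein, fell there too (log2 differences -1.1 and -1.17). CCNF, the cyclin F of an SCF ubiquitin ligase, fell likewise (-1.1 and -1.22), and PSRC1, a microtubule-binding protein, fell by 1.03 in H1299shRAD9 DBP. BORA, an activator of Aurora A, fell in H1299shRAD9 DBN (-1.13) and in H1299 DBP (-1.2). FAM83D, a spindle protein, fell in H1299 DBP (-1.19), as did the mitotic kinase AURKA (-1.18) and PSRC1 (-1.13), each with a limma adjusted p of 0.0959.

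Against bystanders, 9 of 35 G2/M genes were lower in H1299shRAD9 DBP than in BP (0.0983% of all features) and 12 of 35 lower in DBN than in BN (0.131%), and none passed in H1299, where no feature of 12206 was called and 740 and 411 had an unadjusted p under 0.05. Without 1 replicate number these counts were 0 or 1 in DBP and 2 to 9 in DBN. In bystanders against CTL none of the 35 was called in either line, with list medians of 0.016 and 0.038 in H1299shRAD9 BP and BN. In H1299 BP all 35 had a lower mean than CTL, with a list median of -0.23 beside -0.071 for all features, and in H1299 BN 31 of 35 did, with a median of -0.12 beside -0.042. Between the lines, 3 were lower in H1299shRAD9 CTL cells, TACC3 by -0.61, BORA by -0.49 and PSRC1 by -0.48 (limma adjusted p = 0.0225, 0.0291 and 0.0228), and none was called in BP or BN. Without 1 replicate number the CTL count was 0 or 1.

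**Figure D3:**
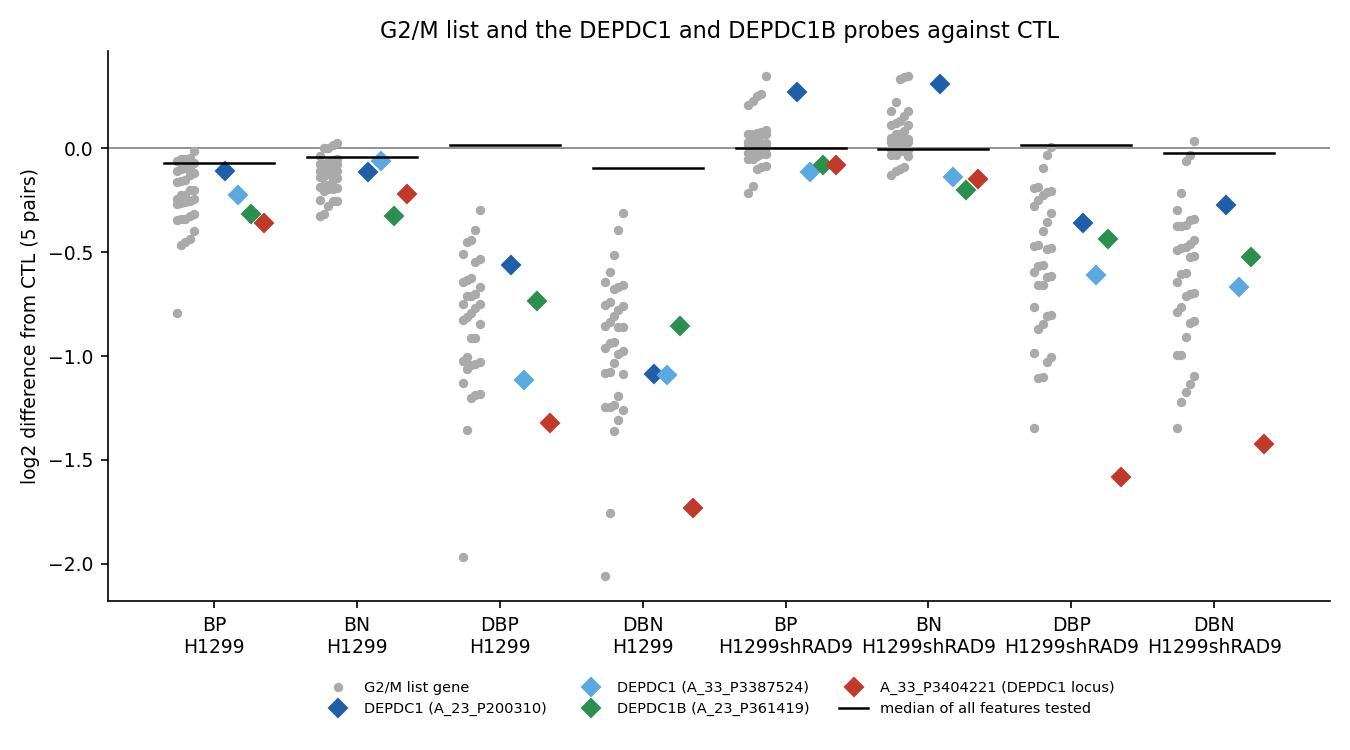
Log2 difference from CTL (mean of 5 pairs) in the BP, BN, DBP and DBN groups of each line, with the 35 tested G2/M genes as grey points, the 4 DEPDC1 and DEPDC1B probes as diamonds and the median of all features as a black line. The list medians lie between -0.23 and 0.038 in bystander groups and between -0.93 and -0.56 in direct groups.

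The arm of ZNF224 and TNFAIP3, described for DEPDC1 in bladder cancer cells, had 8 of 17 listed genes tested. Neither ZNF224 nor TNFAIP3 was among those 8. RELB, a subunit of NF-κB, rose by 0.55 in H1299shRAD9 DBP and by 0.59 in DBN (limma adjusted p = 0.0783 and 0.0940), and no other gene of the arm was called against CTL. In H1299 RELB differed by 0.82 in DBP (adjusted p = 0.339) and 0.63 in DBN (adjusted p = 1.00). Between the lines CXCL1, a chemokine gene, was higher by 1.01 and TRAF1, an adaptor of TNF receptors, lower (-0.69) in H1299shRAD9 CTL cells (adjusted p = 0.00296 and 0.00871).

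Other lists changed little. Of other genes with a DEP domain, 8 of 21 were tested and none was called against CTL, while RGS9, a regulator of G protein signalling, was lower in H1299shRAD9 than in H1299 (-2.04 in CTL cells, limma adjusted p = 0.00604). Of 17 regulators in the FOXM1 and MuvB list 6 were tested, and none was called against CTL. FOXM1 and MYBL2 were not among them. Of the neighbours of DEPDC1 on chromosome 1, 3 of 11 were tested, and SRSF11, a splicing factor, rose by 0.55 and 0.62 in H1299shRAD9 DBP and DBN (adjusted p = 0.0957 and 0.0969). GADD45A and WLS were not called. Of the neighbours of DEPDC1B on chromosome 5, 6 of 11 were tested and none was called against CTL, and ELOVL7, a fatty acid elongase, was lower in H1299shRAD9 CTL cells (-0.87, adjusted p = 0.00315).

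The features most like A_33_P3404221, DEPDC1 A_23_P200310 and DEPDC1B over the 50 arrays were sought among 20100 features above background, as a description with no test. They were not sought for A_33_P3387524. For A_33_P3404221 they were TROAP (Pearson r = 0.943), PIF1 (0.894), FAM83D (0.887), PSRC1 (0.878) and CDCA2 (0.874), a regulator of mitotic phosphatase. After the 10 group means were removed these fell to 0.70, 0.52, 0.37, 0.42 and 0.50. For DEPDC1 A_23_P200310 they were the kinesin KIF14 (0.807), the centromeric protein CDCA8 (0.800), SIGLEC16 (0.788), AURKAPS1 (0.783) and GAS2L3 (0.775), and within groups they were 0.33, 0.29, 0.53, 0.21 and 0.28. For these probes most of the likeness lay between groups.

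DEPDC1B had closer company. Its most similar features were KIF23 (r = 0.947), PNRC2, an mRNA decapping cofactor (0.906), CCDC99, a spindle checkpoint gene also known as Spindly (0.903 and 0.896 by its probes), and ARHGAP11A (0.884). Within groups the values were 0.94, 0.91, 0.92, 0.89 and 0.86, so these features varied together among replicates of the same group. In several groups DEPDC1B was lowest on the array with the largest share of probes well above background. These were H1299 DBP (2.35), H1299 DBN (1.97), H1299 BP (2.96), H1299shRAD9 DBP (2.80) and H1299shRAD9 BN (3.24). It was not so in either CTL group, H1299 BN, H1299shRAD9 BP or H1299shRAD9 DBN. Whether array quality enters these correlations was not tested. KIF23 encodes the kinesin of the central spindle and was read here by A_33_P3311755.

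The members themselves were unequally alike. The DEPDC1 probes correlated at r = 0.634 over the 50 arrays and at 0.21 within groups. DEPDC1 A_33_P3387524 and DEPDC1B, which are different genes, correlated at 0.808 and at 0.74 within groups. In every group but H1299shRAD9 BP, A_33_P3387524 was lowest on the array with the largest share of probes well above background. DEPDC1B was lowest on the same array in some of these groups, as given above. Whether that share enters the correlation was not tested. A_33_P3404221 correlated with A_23_P200310 at 0.766 and with A_33_P3387524 at 0.590, and within groups at 0.26 and -0.22. With DEPDC1B it correlated at 0.539 and at 0.11 within groups. Points here share arrays, scaling and treatment, so these values are not independent.

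**Figure D4:**
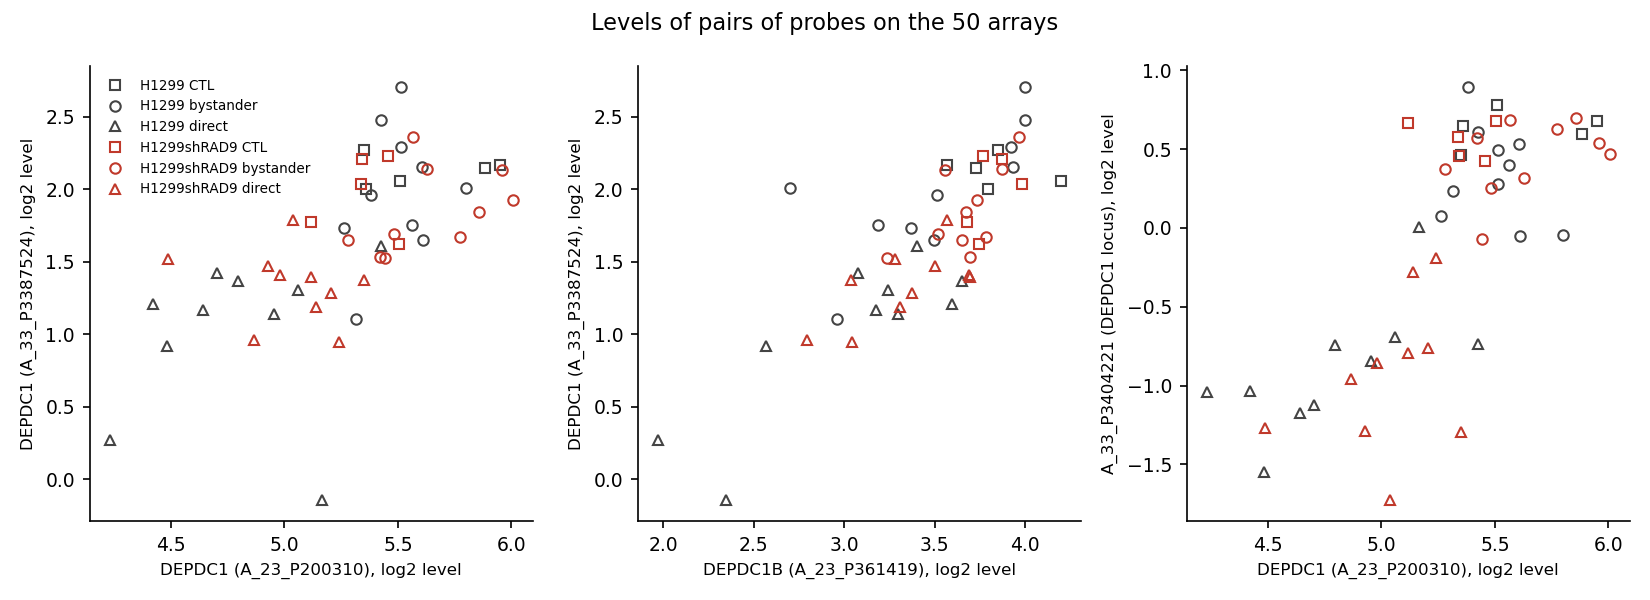
Log2 levels of pairs of probes on the 50 arrays, with squares for CTL, circles for bystanders and triangles for direct groups, H1299 grey and H1299shRAD9 red. The DEPDC1 probes (left, r = 0.634) scatter within each group. DEPDC1B and DEPDC1 A_33_P3387524 (middle, r = 0.808) follow each other also inside groups. A_33_P3404221 against DEPDC1 A_23_P200310 (right, r = 0.766) sets most direct arrays apart from the others, mainly on the vertical axis.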

How the data were processed

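RNA of 50 cultures was hybridised to 1-colour (Cy3) Agilent 4x44K human arrays. The intensities used are the processed signals the authors deposited, from Agilent Feature Extraction 11.5.1.1, background-subtracted by that program, and a deposited table of log2 values of 9502 features, already scaled by the authors, served as an alternative. Signal over background, not read depth, limits precision.

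Spots flagged as outliers were left out, log2 intensities of a probe's spots were averaged, and each array's median over 34127 probes was subtracted. A probe was kept if it was well above background on more than 75% of arrays (20100 probes) and at least 1.3-fold from its median on 20% of them (12206). Tests used limma 3.58.1 in R 4.3.3 with only the 2 groups compared, Benjamini-Hochberg adjustment over all features, and the replicate number as a block for treatments within a line, as in the study's paired test. Thresholds were those of the study. Same-numbered arrays deviated together within H1299shRAD9 (mean correlation 0.49 to 0.62 in the 6 blocked comparisons) and less so in H1299 (0.14 to 0.41). P-values measure the spread between these samples. The steps were tested on simulated data.

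Named were all probes of both genes, A_33_P3404221, up to 5 features most like the leading probe of each gene and A_33_P3404221, and called genes with the largest differences (at most 4 a list and comparison). Results of 1 gene list are not reported here. The members and lists were chosen with earlier results of these data known. Within slides, with slide as a block, and with other scalings, filters and samples, all values were recomputed. The array's gene names were kept, and sequences came from the array annotation and RefSeq tables (GRCh38.p14).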

Additional observations from a re-analysis of the deposited data

Results flagged for a closer look

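In 3 of 40 sets of 5 arrays, 1 array stood apart from the other 4 by more than the 95% limit of Dixon's test, which chance alone passes in about 1 of 20 sets. Replicate 1 of H1299 DBP was low for DEPDC1B (2.35, the others 3.17 to 3.40) and for DEPDC1 A_33_P3387524 (-0.15, the others 1.14 to 1.61). Replicate 5 of H1299shRAD9 DBN was low for DEPDC1 A_23_P200310 (4.49, the others 5.12 to 5.35). On replicate 1 of H1299 DBP 68.7% of probes were well above background, beside 63.1% to 63.6% on the other arrays of that group. On replicate 5 of H1299shRAD9 DBN the share was 65.1%, beside 58.5% to 65.8% on the others. None of the 24 pairs of matched comparisons had every sample of one line higher and every sample of the other lower.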

How the results depend on the processing

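Of 32 differences of direct cells from CTL or bystanders, 473 of 474 values under the alternatives kept the lower sign, the exception being DEPDC1B in H1299 DBN against BN (0.23 with normexp). Normexp background correction moved 9 of them by more than the SD of the pairs. For A_33_P3404221 it gave -0.97 (H1299shRAD9 DBP), -0.91 (H1299shRAD9 DBN), -0.86 (H1299 DBP) and -1.21 (H1299 DBN) against CTL, -0.89 for H1299shRAD9 DBP against BP and -0.85 for H1299 DBN against BN. For DEPDC1 A_23_P200310 it gave -0.86 in H1299 DBP against CTL and -0.12 in H1299 DBN against BN, and for A_33_P3387524 -0.50 in the latter. The cause was not tested. None of 31 tested results was called under any alternative (437 values, smallest adjusted p 0.0733 against 0.244 as reported), and the signs that changed were of values no larger than 0.23 in size. Between lines in BP, DEPDC1 A_23_P200310 was -0.0017 by the 75th percentile, -0.066 by quantile normalization and -0.0026 in the authors' values. In BN, normexp gave 0.15 for A_33_P3387524 and 0.19 for A_33_P3404221, and the authors' values -0.015 for DEPDC1B. For BP against BN in H1299, normexp gave 0.19 for A_33_P3387524 and 0.054 for A_33_P3404221, the authors' values -0.0045 for A_23_P200310 and -0.0026 for DEPDC1B, and the slide as a random or fixed block -0.012 and -0.066 for A_23_P200310. In H1299shRAD9 the fixed slide block, chosen after seeing the data, gave -0.15 for A_33_P3387524 and -0.12 for A_33_P3404221. Against CTL in H1299shRAD9, DEPDC1B was 0.018 in BP with normexp and 0.010 in BN with the fixed slide block.

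Leaving out 1 replicate number turned the sign in 10 tested results. Between lines the ranges were -0.0997 to 0.0845 (DEPDC1B, CTL), -0.23 to 0.20 (A_33_P3387524, BP), -0.085 to 0.21 (DEPDC1B, BN) and -0.149 to 0.141 (A_33_P3404221, BN). For BP against BN they were -0.143 to 0.0952 (A_23_P200310) and -0.0258 to 0.086 (A_33_P3387524) in H1299shRAD9, and -0.0544 to 0.0819 (A_23_P200310), -0.449 to 0.0552 (A_33_P3387524) and -0.188 to 0.254 (DEPDC1B) in H1299. For H1299 BP against CTL, A_23_P200310 ran from -0.177 to 0.0060. The replicate block changes no difference of means, only its error, and neither adding nor dropping it changed a call of the members (DEPDC1 A_23_P200310 in H1299shRAD9 BP stayed at 0.27). Without it, 10 G2/M genes in place of 18 were called lower in H1299shRAD9 DBP and 12 in place of 20 in H1299shRAD9 DBN. The count was 9 in place of 12 in H1299shRAD9 DBN against BN and 11 in place of 9 in H1299shRAD9 DBP against BP. It was 5 in place of 6 in H1299 DBP and 1 as before in H1299 DBN. Over all settings that kept every replicate, those counts ran from 0 to 23, from 1 to 22 and from 7 to 13, from 3 to 16 for H1299shRAD9 DBP against BP, from 0 to 20 for H1299 DBP, from 0 to 24 for H1299 DBN, from 0 to 19 for H1299 DBN against BN and from 0 to 13 between lines in CTL, the highest H1299 values coming from a fit of all 10 groups together. The slide as a random block could not be fitted between lines in BP and BN, nor as a fixed block between lines, and A_33_P3387524 was not analysed in the authors' values. Signal over background limits A_33_P3404221 in H1299shRAD9 DBP.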
